A study of Mus musculus with 23 samples.

Results

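A404 cells grown for 96 hours in 1 µmol/L retinoic acid (the all-trans form) and afterwards for 48 hours with puromycin (Puromycin, 6 arrays) were compared with A404 cells after 48 hours of retinoic acid alone (RA48, 5 arrays). The arrays were chosen by their sample titles and make up 11 of the 23 arrays of a series on smooth muscle differentiation. The other 12, namely 6 arrays after 96 hours of retinoic acid without puromycin (RA96) and 6 of untreated cells taken at time 0 near confluence (Control), were used to place the early response and to divide the later change into steps. A404 is a clone of P19, a mouse embryonal carcinoma line, so all groups are 1 clone grown in the same serum-containing medium. Each replicate combined RNA from 5 to 6 plates, labelled red (Cy5) and hybridized with a common pool of whole mouse embryos of day 17.5 labelled green (Cy3), without a dye swap. All levels below are log2 ratios of cells over this embryo pool, so 0 is the embryo level of a gene, and differences between groups are differences of such ratios. RA48 plates began retinoic acid at about 30% confluence. For the Puromycin plates the labels give no starting density and do not say whether retinoic acid stayed on during puromycin. Longer retinoic acid, puromycin, selection and time in culture therefore cannot be told apart in this comparison. The arrays measured bulk RNA, in which fewer cells of a type and less RNA per cell cannot be told apart.

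Retinoic acid enters the nucleus and binds retinoic acid receptors, which sit with retinoid X receptors on response elements and switch on early targets, among them the receptor gene Rarb itself. In P19-type embryonal carcinoma cells this ends the pluripotent state and opens several fates, of which A404 was isolated for smooth muscle. A404 cells are known to carry a puromycin resistance gene under the smooth muscle alpha-actin (Acta2) promoter, so that puromycin leaves cells in which this promoter is active. A higher Acta2 level in Puromycin cells is thus tied to how the cells were selected.

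The arrays of both groups fell into 2 sets, replicates 1 to 3 and the rest. Within a group, arrays of 1 set correlated at 0.91 to 0.98 over all rows and arrays of different sets at 0.70 to 0.84. The labels name no batch, and what separates the sets is not stated. Each set held both groups (3 Puromycin and 3 RA48 arrays in the first, 3 and 2 in the second), and the set was fitted as a block in a linear model of all 23 arrays. Genes with a Benjamini-Hochberg adjusted p under 0.05 in limma are called, and adjusted p-values below are of this kind. Since no label states that replicates came from separate cultures, a p-value here is about array-to-array spread, part of which may be technical.

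The later change from RA48 to Puromycin was broad and mostly small. Of the 17863 rows tested, 40.8% were called. Of the 8683 rows that are genes, 49.1% were called, 1920 (22.1%) higher and 2344 (27.0%) lower in Puromycin cells. The median size of a called change was 0.45, and 3799 of the 4264 called genes changed by less than 2-fold. At 2-fold or more, 266 genes (3.06%) were higher and 199 (2.29%) lower. Puromycin and RA48 arrays did not overlap within either set for 1526 genes higher (17.6%) and 1903 genes lower (21.9%) in Puromycin cells. Of the called genes, 4046 had the same direction in both sets and 1514 were called in each set taken alone, where 25.1% of genes were called higher and 30.9% lower in the first set, and 11.7% and 11.8% in the second. In a further fit each group within each set was a random block, so that such arrays count as correlated (estimated correlation 0.68). There 332 genes (3.82%) were called higher and 266 (3.06%) lower. The random block took the place of the set term, so a shift between sets shared by both groups counted as spread. The part of each change in the lower counts was not tested. List counts below that remained called with the random block stand against these 3.82% and 3.06%.

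Genes were then sorted by the early change (RA48 minus Control) and the later change (Puromycin minus RA48). Genes called higher in RA48 than Control, 24.8% of all genes, included 436 that were at least 2-fold higher, and these were divided by what followed. In 63 (14.4%) the early rise was lost, meaning a later fall that was called and at least 2-fold. In 300 (68.8%) it was kept, and in 73 (16.7%) the gene rose further by at least 2-fold. The 6498 genes with an early change under 0.5 in size were late gained (116 genes, 1.34% of all) or late lost (70 genes, 0.806%) when the later change was called and at least 2-fold. Of 198 genes at least 2-fold lower in RA48 than Control, among the 24.6% of all genes called lower, 5 recovered, 178 stayed low and 15 fell further. Both changes use the RA48 arrays, so an error there pushes them in opposite directions and these counts describe the sorting only.

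**Figure D1:**
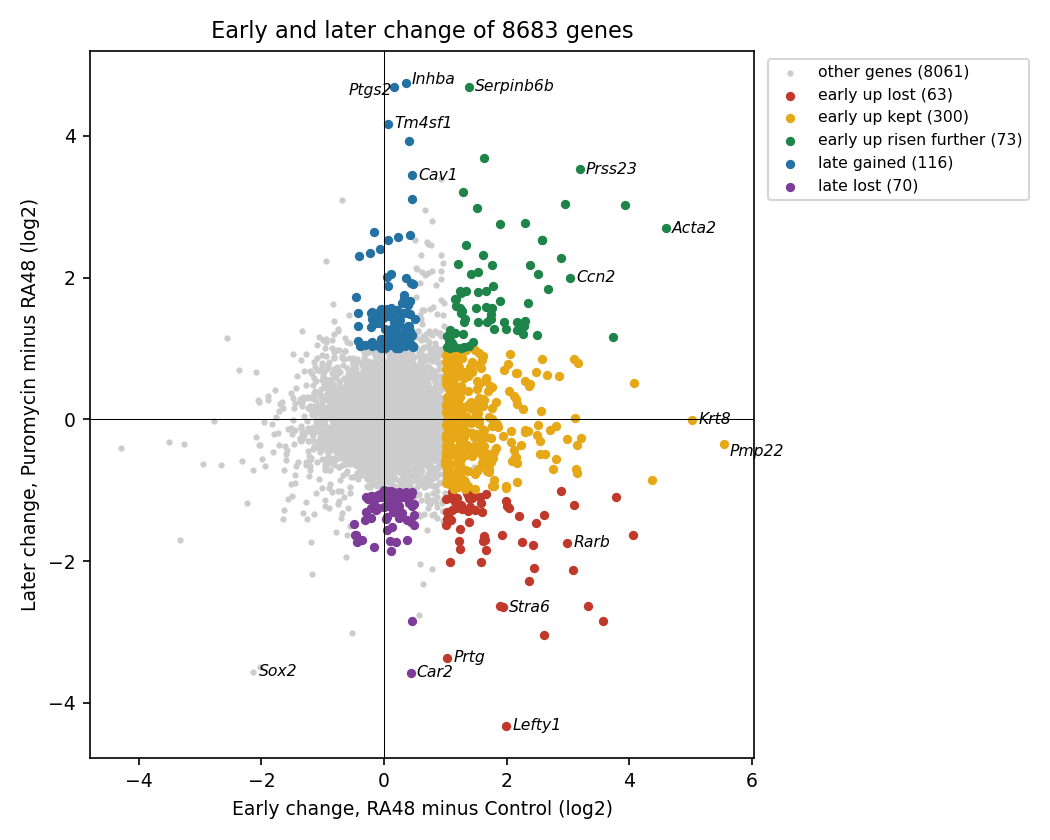
Each point is 1 gene, with its early change (RA48 minus Control, log2) across and its later change (Puromycin minus RA48, log2) upward. Colours mark the classes, with the number of genes in the key. Lefty1, Prtg, Stra6 and Rarb lie at the lower right (early rise lost), Inhba, Ptgs2, Tm4sf1 and Cav1 at the top centre (late gained), and Serpinb6b, Prss23, Acta2 and Ccn2 at the upper right (risen further).

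The early and later changes were therefore also taken from different arrays. With the early change from the first set and the later change from the second, 567 genes had risen early by at least 2-fold. Of these, 62 (10.9%) fell later and 94 (16.6%) rose later by at least 2-fold, against 1.59% and 2.72% of all genes. With the sets exchanged, 378 genes had risen early, of which 55 (14.6%) fell and 84 (22.2%) rose later, against 3.94% and 4.58% of all genes. Among early-rising genes further rises outnumbered losses in both divisions, and both shares lay above those of all genes. Genes with an early change under 0.5 rose later by at least 2-fold in 1.32% and 2.44% of cases in the 2 divisions, below the shares of all genes. They fell later in 0.668% and 2.82%, also below. The differences in shares were not tested. Just inside the limits lay Ifitm3 (-1.005) and Arhgap31 (-1.025) among the lost genes, and Fgfr2 (-0.982) and Zfp518a (-0.986) lay just outside. Among late gained genes Cpeb4 and Tgfb1 (both 1.00) were just inside, and Zfp942 (0.990) and Plpbp (0.992) just outside.

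The 4 marker genes of the comparison split between loss and gain. Lefty1, a secreted inhibitor of Nodal signalling in the early embryo, ranged from 1.15 to 1.87 in Puromycin cells (median 1.52), against 6.10, 6.26, 6.12, 5.45 and 5.48 in RA48 cells. All Puromycin arrays lay far below all RA48 arrays. Lefty1 was lower in Puromycin cells (log2 difference -4.32 ± 0.16 SE, adjusted p = 4.33e-14 in limma), the largest fall of all genes named here. It had been 3.99-fold higher in RA48 than in Control cells, and in Puromycin cells it also lay below Control (-2.33, adjusted p = 2.24e-11).

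Rarb, the retinoic acid receptor beta and a textbook direct target of retinoic acid, ranged from 0.83 to 1.21 in Puromycin cells (median 0.98), against 3.09, 3.09, 3.13, 2.03 and 2.52 in RA48 cells. The groups did not overlap. The fall was 3.34-fold (-1.74 ± 0.19, adjusted p = 2.89e-07), larger in the first set (-2.19) than in the second (-1.17). Rarb was not called at 96 hours (RA96 minus RA48 -0.14 ± 0.19, adjusted p = 0.595), and its called fall lay between RA96 and Puromycin (-1.60 ± 0.18, adjusted p = 6.4e-06). It remained above Control in Puromycin cells (1.25, adjusted p = 4.29e-06).

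The 250 bases before the start of Rarb hold a direct repeat bound by retinoic acid receptors, and are shown with those of Serpinf2 because these are the lost genes whose windows held the motif. The motif searched, on both strands, was GTTCA, any 6 bases and GTTCA again. It was present in 22 of 32851 promoter windows of 250 bases (0.067%) and in 6 of 7022 genes on the array that had a window (0.0854%). Of the 44 lost genes that had a window 2 held it, Rarb and Serpinf2. The motif has the half-sites and spacing of the Rarb repeat itself, so the match in Rarb is not independent of the choice of motif. Other forms of the element were not searched, and enrichment in the lost genes was not tested. The motif was in 0 of 241 genes whose early rise was kept and in 1 of 81 late gained genes. In Rarb (RefSeq, GRCm38.p6, chr14:16575477-16575726, minus strand) it lay at positions -52 to -37 from the start and overlapped neither of the other motifs searched below. In Serpinf2 (chr11:75439502-75439751, minus strand), the gene of the plasmin inhibitor alpha-2-antiplasmin, it lay on the opposite strand at positions -106 to -91. A match is a description of the letters, not a measured binding site. Both are written in the direction of the gene with the repeat in capitals.
Rarb: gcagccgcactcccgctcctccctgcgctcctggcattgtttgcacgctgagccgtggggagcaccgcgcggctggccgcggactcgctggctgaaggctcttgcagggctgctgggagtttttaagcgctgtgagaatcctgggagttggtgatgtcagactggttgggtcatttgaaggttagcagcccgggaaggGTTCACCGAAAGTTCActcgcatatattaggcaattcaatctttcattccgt
Serpinf2: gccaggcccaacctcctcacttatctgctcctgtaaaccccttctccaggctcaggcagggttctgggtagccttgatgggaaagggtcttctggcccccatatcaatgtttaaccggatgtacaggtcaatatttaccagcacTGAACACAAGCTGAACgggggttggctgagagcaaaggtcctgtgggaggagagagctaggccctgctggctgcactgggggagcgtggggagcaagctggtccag

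Serpinb6b, a serine protease inhibitor of the clade B serpins, ranged from 4.26 to 4.73 in Puromycin cells (median 4.59), against 0.03, 0.02, 0.28, -0.78 and -0.15 in RA48 cells. All Puromycin arrays lay far above all RA48 arrays, by 25.8-fold (4.69 ± 0.30, adjusted p = 1.23e-10). Its early rise had been smaller (1.39), and most of the later rise was present at 96 hours (3.80).

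Ccn2, the matricellular protein also called connective tissue growth factor and a target of YAP and TGF-beta signalling, ranged from 3.98 to 5.07 in Puromycin cells (median 4.42), against 2.34, 2.38, 2.44, 2.48 and 2.57 in RA48 cells. The groups did not overlap, and the difference was 3.99-fold (2.00 ± 0.16, adjusted p = 2.5e-09). It followed an early rise of 3.03. From RA96 to Puromycin the difference was 0.45 ± 0.15, which was not called (adjusted p = 0.0508).

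**Figure D2:**
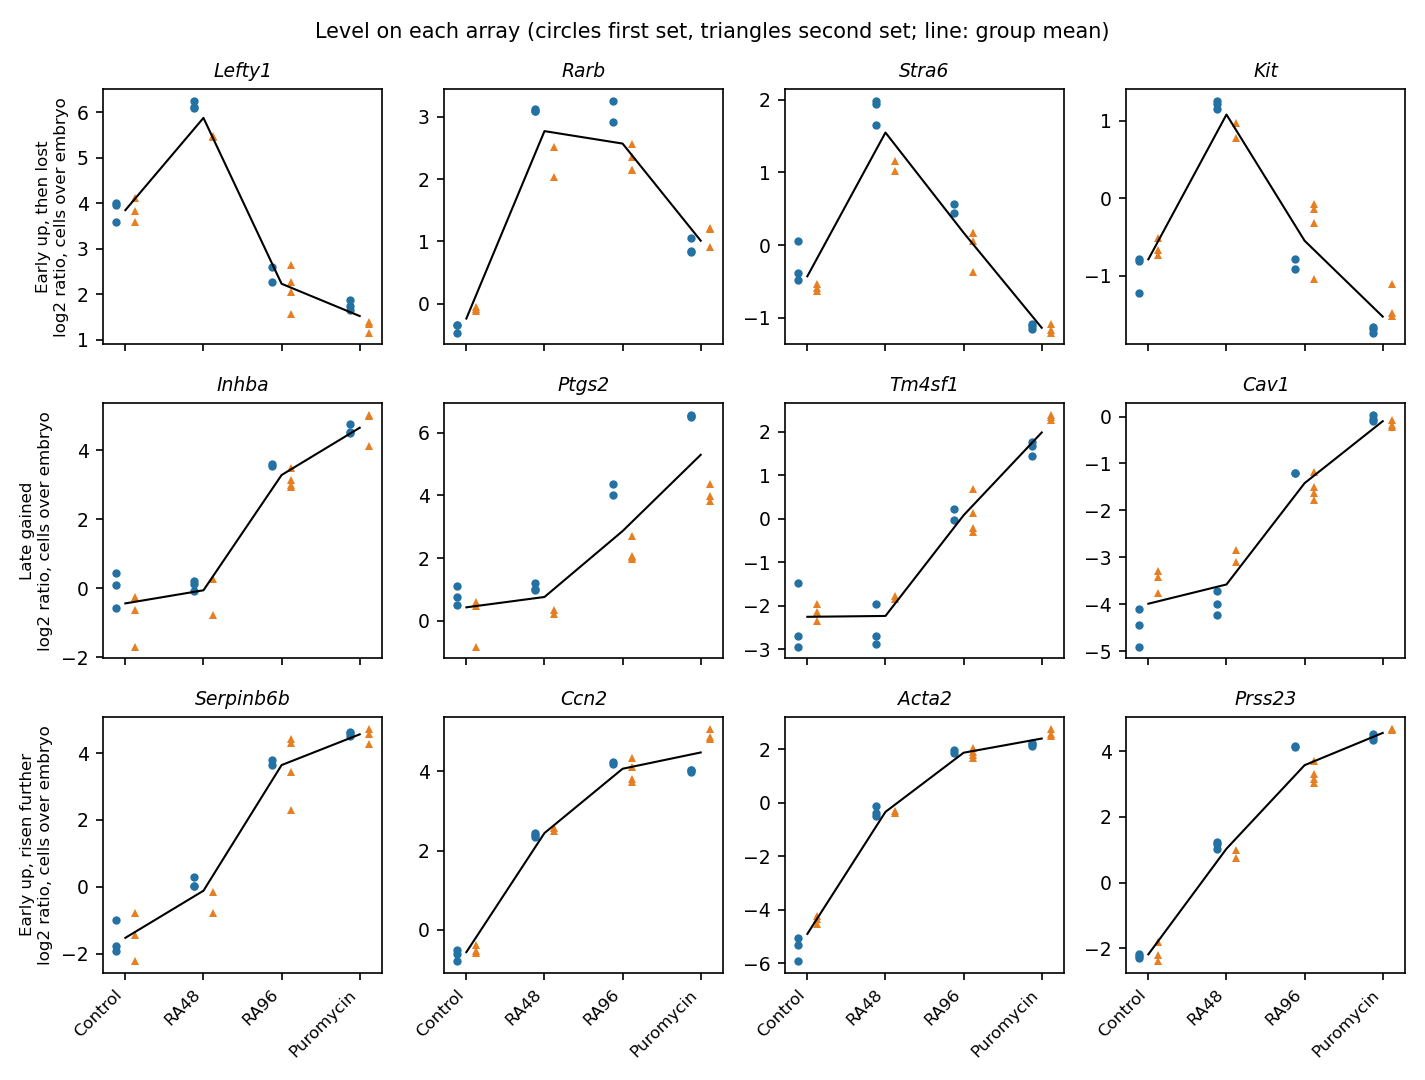
Level of 12 genes on every array (log2 ratio of cells over the embryo pool), in the order Control, RA48, RA96 and Puromycin. Circles are arrays of the first set, triangles arrays of the second, and the line joins group means. In the top row the genes peak at RA48, or for Rarb stay high until RA96, and are low in Puromycin cells. In the middle row the means of Control and RA48 differ by less than 0.5 and Puromycin is highest, and in the bottom row each group mean is above the one before it.

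The smooth muscle label was checked against the contractile genes. Acta2, smooth muscle alpha-actin, ranged from 2.13 to 2.77 in Puromycin cells (median 2.36), against -0.37, -0.48, -0.11, -0.32 and -0.40 in RA48 cells. It was 6.47-fold higher in Puromycin cells (2.69 ± 0.18, adjusted p = 2.82e-10), after an early rise of 4.60 that was larger than the later one. Myl9, the regulatory myosin light chain of smooth muscle, ranged from 1.24 to 2.03 (median 1.46) in Puromycin cells, against -0.83, -0.80, -0.70, -0.57 and -0.55 in RA48 cells. It too was higher without overlap (2.18 ± 0.14, 4.52-fold, adjusted p = 1.37e-10).

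Calponin and the smooth muscle myosin heavy chain, markers of the mature contractile state, were not called. Cnn1, the actin-binding protein calponin, ranged from 0.09 to 0.59 in Puromycin cells (median 0.37), against 0.36, 0.45, 0.19, -0.19 and -0.09 in RA48 cells. The ranges over all arrays overlapped, but within each set every Puromycin array lay above every RA48 array. The difference was not called (0.21 ± 0.20, adjusted p = 0.429). Myh11, a myosin heavy chain particular to smooth muscle, ranged from -1.98 to 0.13 in Puromycin cells (median -1.01), against -1.74, -2.04, -1.77, 0.00 and 0.17 in RA48 cells. Its levels separated by set and not by group (-0.07 ± 0.12, adjusted p = 0.696), and it was not called against Control either (0.19, adjusted p = 0.172). Tagln and Myocd, further defining markers, were not assessed here.

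Of 27 contractile genes measured, 15 rose (55.6%, against 22.1% of all genes), 2 fell and 10 were not called, with a median difference of 0.52 against -0.04 over all genes. Of the 27, 7 are early genes that rose further and 8 are early genes that were kept. Cald1 (caldesmon, 1.57), Actg2 (smooth muscle gamma-actin, 1.59), Smtn (smoothelin, 0.61) and Des (desmin, 0.57) rose. Fhl1, a LIM-domain protein of muscle, rose by 2.32. Mylk, the kinase that activates myosin light chain, fell by 0.98, against -0.16 in the second set and with no call under the random block (adjusted p = 0.743), and Tpm1, a tropomyosin, fell by 0.52 in the common fit but was at 0.07 in the second set. With the random block 7 of the 15 rises remained called. Of 17 smooth muscle regulators measured, 6 rose (35.3%), 3 of them also with the random block, among them Klf4 (2.09), a factor known to repress contractile genes, Prrx1 (1.55) and Hey2 (0.71). Notch3 fell by 0.41, and Srf, the factor that binds contractile promoters, was not called (0.06, adjusted p = 0.574).

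Promoters of genes that rose further are shown because serum response factor acts through the CArG box, and TEAD factors through GGAATG. A CArG box was searched by its consensus on both strands of the same 250-base windows. It was present in 1.47% of all windows and in 99 of 7022 genes on the array that had a window (1.41%). By class, 5 of 59 genes that rose further (8.47%), 7 of 241 kept genes (2.9%), 1 of 81 late gained genes (1.23%) and 0 of 44 lost genes held it. The 5 that rose further were Fhl1, Filip1l, Igf2, Myl9 and Pdgfc. GGAATG, searched on both strands, was present in 12.6% of all windows and in 916 of the 7022 genes (13.0%). By class, it was in 17 of 59 genes that rose further (28.8%), 42 of 241 kept genes (17.4%), 14 of 81 late gained genes (17.3%) and 5 of 44 lost genes (11.4%). These shares are descriptions, and windows without a match say only that these letters are absent there. The CArG consensus searched was CC, then only A or T, then GG, so a box with another base inside was not counted. The Acta2 window holds CCCTATATGG and CCTTGTTTGG, which each depart from this consensus by a base. Myl9 (chr2:156775214-156775463, plus strand), Fhl1 (chrX:56779433-56779682, plus strand) and Filip1l (chr16:57548992-57549241, plus strand) are written with the CArG box in capitals, which begins at positions -161, -102 and -62 from the start. Acta2 (chr19:34255374-34255623, minus strand) and Ankrd1 (chr19:36119845-36120094, minus strand), the gene of a stretch-responsive ankyrin repeat protein, are written with GGAATG in capitals, beginning at position -146 in Acta2 and at position -210 and again nearer the start in Ankrd1. All are RefSeq windows of GRCm38.p6 in the direction of the gene.
Myl9: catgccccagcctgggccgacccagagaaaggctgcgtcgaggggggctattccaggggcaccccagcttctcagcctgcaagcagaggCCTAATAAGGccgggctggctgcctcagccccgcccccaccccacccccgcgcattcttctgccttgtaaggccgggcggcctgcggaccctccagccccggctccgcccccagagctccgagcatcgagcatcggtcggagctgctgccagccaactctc
Fhl1: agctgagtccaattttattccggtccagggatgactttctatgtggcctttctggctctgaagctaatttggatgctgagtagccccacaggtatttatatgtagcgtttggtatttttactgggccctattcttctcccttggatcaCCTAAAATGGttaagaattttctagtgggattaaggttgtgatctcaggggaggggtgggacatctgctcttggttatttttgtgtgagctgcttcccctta
Filip1l: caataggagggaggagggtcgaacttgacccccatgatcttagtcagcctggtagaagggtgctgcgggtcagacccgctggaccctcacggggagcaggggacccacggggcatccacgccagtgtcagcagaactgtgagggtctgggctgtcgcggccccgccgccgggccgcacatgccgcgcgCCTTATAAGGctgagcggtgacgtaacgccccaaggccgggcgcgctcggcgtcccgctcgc
Acta2: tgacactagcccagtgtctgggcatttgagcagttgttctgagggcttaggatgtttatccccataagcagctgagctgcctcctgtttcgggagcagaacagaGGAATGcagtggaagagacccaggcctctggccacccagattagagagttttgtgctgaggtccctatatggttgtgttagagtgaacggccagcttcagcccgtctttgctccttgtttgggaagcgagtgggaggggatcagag
Ankrd1: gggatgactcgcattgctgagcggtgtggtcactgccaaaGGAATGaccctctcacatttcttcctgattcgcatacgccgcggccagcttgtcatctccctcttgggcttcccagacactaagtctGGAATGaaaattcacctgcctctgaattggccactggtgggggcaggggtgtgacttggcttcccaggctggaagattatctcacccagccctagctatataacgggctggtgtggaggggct

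The 63 early genes that were lost had a median early rise of 1.58 and a median later change of -1.36. All 63 had the same direction in both sets (medians of -1.55 and -1.17), 58 were called in each set alone, and 48 were called with the random block. In the median gene 63% of the later change was present at 96 hours. The step from RA48 to RA96 was called for 51 of the 63 (20.3% of all genes fell in that step) and the step from RA96 to Puromycin for 40 (7.45% of all genes), with 31 called in both. The steps add up to the later change that chose these genes, so their directions are not independent evidence. The same holds for the agreement of the sets, since both sets entered the fit that chose these genes. In Puromycin cells 23 of the 63 were still above Control, 13 were below it and 27 were not called either way, where 30.0% of all genes were above and 37.3% below.

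Of 21 measured genes of the retinoic acid response and retinoid metabolism, 3 were early genes lost (Rarb, Stra6 and the transcription factor Foxa1) and 6 were early genes kept. Stra6, the cell-surface receptor that takes up retinol, ranged from -1.21 to -1.09 in Puromycin cells (median -1.13), against 1.99, 1.94, 1.65, 1.16 and 1.02 in RA48 cells. The 6 Puromycin arrays lay within a narrow band below every RA48 array, 6.29-fold lower (-2.65 ± 0.13, adjusted p = 1.88e-12). Its fall was called in both steps, by 1.28 to RA96 and by 1.37 after it. Over the 21 genes, 12 had been called higher in RA48 than in Control and 2 lower, with a median early change of 0.73. In Puromycin against RA48, 11 fell (52.4%, against 27.0% of all genes) and 1 rose, with a median of -0.37. The riser was Aldh1a3 (0.52), an enzyme that makes retinoic acid. The median was -0.54 in the first set and -0.05 in the second, and 5 falls remained called with the random block. Rara was not called (-0.08, adjusted p = 0.575). Cyp26a1, the retinoic acid hydroxylase, was not assessed here.

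Retinoic acid is known to induce Hox genes in order along their clusters. Of 14 Hox genes measured, 3 rose (21.4%, against 22.1% of all genes), 4 fell (28.6%, against 27.0%) and 7 were not called. Calls remained for 0 of the rises and 2 of the falls with the random block. Among the 14, 4 had risen early by 2-fold or more, and these 4 were in the kept class. Hoxa5 ranged from 1.71 to 2.52 in Puromycin cells (median 2.17), against 3.24, 3.25, 3.25, 2.80 and 2.74 in RA48 cells. It fell by 0.86, against an early rise of 4.38. Hoxb5 fell by 0.88 and Hoxb1 by 0.57, and Hoxc10 (0.46), Hoxd13 (0.44) and Hoxa10 (0.23) rose.

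Other lost genes encode patterning factors, receptors and matrix. Prtg, protogenin, an immunoglobulin-family protein of the early neural axis, ranged from 0.47 to 1.54 in Puromycin cells (median 1.03), against 4.64, 4.85, 4.83, 3.67 and 4.23 in RA48 cells. It was 10.3-fold lower without overlap (-3.37 ± 0.12, adjusted p = 4.33e-14), with 2 probes at -4.27 and -2.46. Irx3, a homeodomain factor, ranged from -0.46 to 0.40 in Puromycin cells (median -0.01), against 2.36, 2.5, 2.35, 1.61 and 1.94 in RA48 cells. Its fall of 2.13 was almost all present at 96 hours (RA96 minus RA48 -1.98, Puromycin minus RA96 -0.15, adjusted p = 0.64 for the second).

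Gfra1, the receptor of glial cell line-derived neurotrophic factor, ranged from -1.57 to -0.60 in Puromycin cells (median -1.33), against 1.45, 1.74, 1.69, 1.36 and 1.55 in RA48 cells (-2.85 ± 0.23, adjusted p = 5e-09). Kit, the receptor of stem cell factor, ranged from -1.74 to -1.11 in Puromycin cells (median -1.59), against 1.22, 1.26, 1.15, 0.78 and 0.97 in RA48 cells (-2.63 ± 0.16, adjusted p = 4.47e-11). Neither gene's groups overlapped. Col18a1, whose C-terminal fragment is endostatin, ranged from -1.86 to -1.56 in Puromycin cells (median -1.73), against 1.42, 1.39, 1.32, 1.30 and 1.22 in RA48 cells. It was 8.24-fold lower with the smallest adjusted p among the genes named here (-3.04 ± 0.08, 5.23e-16), and both of its probes fell (-3.21 and -2.88).

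Serpinf1, pigment epithelium-derived factor, fell by 2.63 and Igfbp3, an insulin-like growth factor binding protein, by 2.28, the second of them at -1.30 in the first set and -3.51 in the second set. Lama1, the laminin alpha-1 chain of embryonic basement membrane, fell by 1.71, Foxa1 by 1.25, and Wif1, a Wnt inhibitor, also fell (-1.46). The probes of Foxa1 disagreed, at -2.44 and -0.05.

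**Figure D3:**
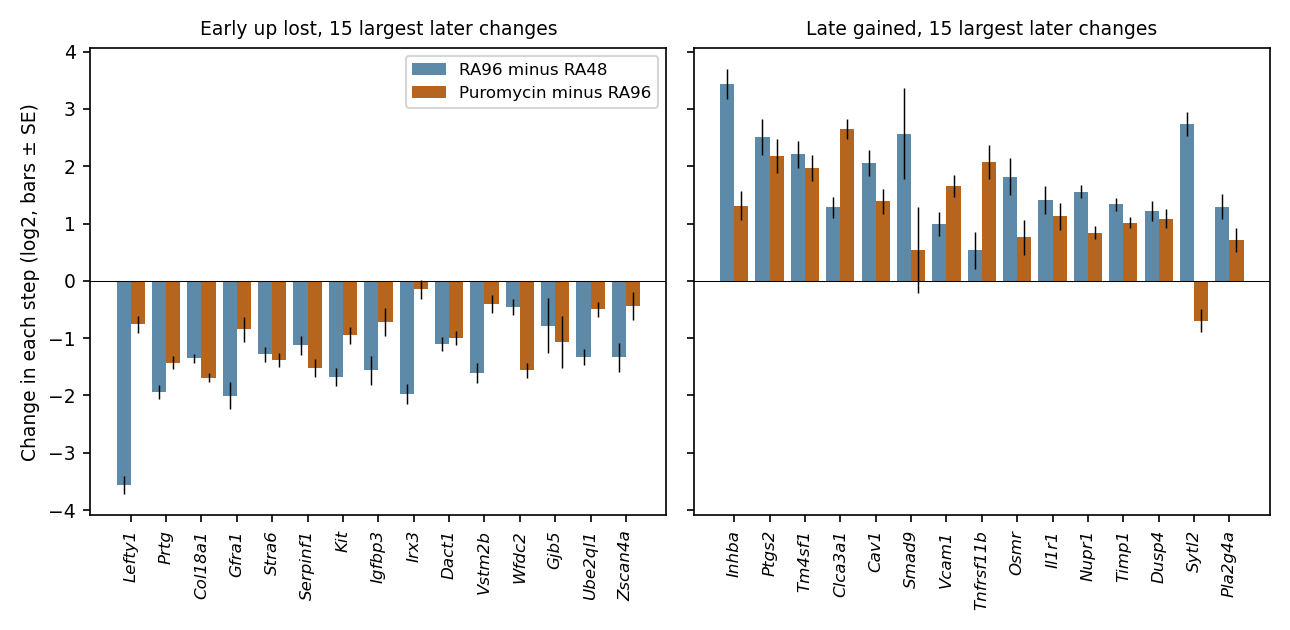
Change in each of the 2 later steps for the 15 lost genes and the 15 late gained genes with the largest later change. Bars are RA96 minus RA48 and Puromycin minus RA96 (log2) from the fit of all arrays, with the standard error. Most bars of a gene point the same way. The exceptions in size are Irx3, whose fall of 1.98 came in the first step, Tnfrsf11b, whose rise of 2.07 came in the second step, and Sytl2, named here after its values were seen, with 2.74 and -0.70.

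The 116 late gained genes had a median early change of 0.16 and a median later rise of 1.25. Of these, 109 had the same direction in both sets (medians of 1.56 and 1.08), 83 were called in each set alone and 71 with the random block. In the median gene 62% of the rise was present at 96 hours. The step from RA48 to RA96 was called for 101 (15.7% of all genes rose in that step) and the step from RA96 to Puromycin for 67 (10.0% of all genes), with 56 called in both. Sets and steps both enter the later change that chose these genes, so their directions are not independent evidence.

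Inhba, Ptgs2, Tm4sf1, Clca3a1 and Cav1 had the largest late gains. Inhba, the subunit of activin A, ranged from 4.11 to 5.03 in Puromycin cells (median 4.66), against -0.08, 0.11, 0.22, 0.26 and -0.78 in RA48 cells. It was 26.8-fold higher (4.75 ± 0.26, adjusted p = 9.23e-12), the largest rise of all genes named here. It was called in both steps (3.43 and 1.31).

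Ptgs2, the inducible cyclooxygenase of prostaglandin synthesis, ranged from 3.83 to 6.57 in Puromycin cells (median 5.43), against 0.99, 1.20, 1.02, 0.34 and 0.23 in RA48 cells. It was 25.8-fold higher (4.69 ± 0.31, adjusted p = 1.81e-10), by 5.46 in the first set and 3.78 in the second. Tm4sf1, a tetraspanin-like surface protein, ranged from 1.45 to 2.39 in Puromycin cells (median 2.02), against -2.88, -2.70, -1.96, -1.78 and -1.84 in RA48 cells (4.17 ± 0.23, adjusted p = 1.48e-11). It rose by nearly the same amount in both sets (4.15 and 4.14). Cav1, the coat protein of caveolae, the membrane pits that are dense in smooth muscle, ranged from -0.22 to 0.04 in Puromycin cells (median -0.08), against -4.23, -3.72, -3.99, -2.85 and -3.10 in RA48 cells. Its 10.9-fold rise (3.44 ± 0.23, adjusted p = 2.08e-10) left its median near the embryo level.

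Clca3a1, a member of the calcium-activated chloride channel regulator family, rose by 3.93 and Vcam1, the adhesion molecule for leukocyte integrins, by 2.64. Tnfrsf11b, osteoprotegerin, the decoy receptor of RANKL, ranged from 0.64 to 0.71 in Puromycin cells (median 0.68), against -2.18, -1.76, -1.97, -1.42 and -2.29 in RA48 cells (2.60 ± 0.31, adjusted p = 1.17e-06). Its call was lost with the random block (adjusted p = 0.0595). Smad9, a Smad of the bone morphogenetic protein branch, ranged from 1.25 to 2.30 in Puromycin cells (median 1.86), against -4.18, -4.38, -4.24, 1.93 and 2.69 in RA48 cells. Its groups overlapped. The difference was 5.65 in the first set and -0.09 in the second, so its place in this class rests on the first set alone.

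The 73 genes that rose further had a median later rise of 1.57. All 73 had the same direction in both sets and 72 were called in each set alone. Since the fit that chose these 73 genes used both sets, this agreement is not independent evidence. Serpinb6b, Emp1 and Prss23 had the largest later rises among them. Emp1, an epithelial membrane protein, ranged from 1.24 to 1.86 in Puromycin cells (median 1.52), against -2.68, -2.77, -2.45, -1.52 and -1.49 in RA48 cells (3.69 ± 0.33, adjusted p = 1.93e-08). Prss23, a secreted serine protease, ranged from 4.34 to 4.68 in Puromycin cells (median 4.58), against 1.03, 1.16, 1.22, 0.76 and 0.99 in RA48 cells (3.53 ± 0.17, adjusted p = 1.24e-12). S100a6, a calcium-binding protein, ranged from 4.01 to 4.27 in Puromycin cells (median 4.02), against 0.76, 0.90, 0.83, 1.39 and 1.29 in RA48 cells (3.04 ± 0.17, adjusted p = 9.23e-12). None of these groups overlapped.

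The 300 kept genes had a median later change of -0.10. Pmp22, a myelin protein that is also made by mesenchyme, had the largest early rise among them (5.54). It ranged from 2.29 to 3.12 in Puromycin cells (median 2.71), against 2.93, 3.07, 3.00, 3.17 and 3.14 in RA48 cells (-0.35 ± 0.20, adjusted p = 0.161). Krt8, a simple-epithelium keratin with an early rise of 5.03, ranged from 2.56 to 3.37 in Puromycin cells (median 3.08), against 2.90, 2.96, 3.08, 3.18 and 3.05 in RA48 cells (-0.00 ± 0.14, adjusted p = 0.984). Its sets differed in sign (0.34 and -0.41). Meis1, a Hox cofactor, and Prdm6, a transcriptional repressor found in smooth muscle, were not called (-0.27, adjusted p = 0.16, and -0.37, adjusted p = 0.144). Anxa3 rose by 0.79, Lgals1 by 0.51, and Gas1 fell by 0.76, all under 2-fold.

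Of 34 genes of the interstitial and matricellular matrix, 22 rose (64.7%, against 22.1% of all genes). In this list 1 gene, Eln (elastin, -0.31), fell, and the median was 0.68. Col8a1, a short-chain collagen of vessel walls, ranged from 2.66 to 3.07 in Puromycin cells (median 2.94), against 0.20, 0.22, 0.36, -0.90 and -1.16 in RA48 cells (3.21 ± 0.21, adjusted p = 1.72e-10). Postn, periostin, rose by 2.98, and Lox, which crosslinks collagen and elastin, by 2.96. Calls remained for 11 of the 22 under the random block. Of 18 basement membrane genes 8 rose (44.4%) and 6 fell (33.3%, against 27.0% of all genes), of which 4 and 2 remained called with the random block. The risers included Nid1 (nidogen, 2.53), Col4a1 (2.10) and Col4a2 (1.8), and the fallers Col18a1 and Lama1 as above and Fbln1 (-0.84). Of 25 extracellular proteases and inhibitors 15 rose and 5 fell, of which 8 and 2 remained. Adamts5, an aggrecan-cleaving protease, ranged from 1.71 to 1.97 in Puromycin cells (median 1.78), against -1.79, -1.63, -1.69, -1.35 and -1.58 in RA48 cells, and rose by 3.39. Timp1, an inhibitor of matrix metalloproteases, rose by 2.35 and Mmp9, a gelatinase, fell by 1.08.

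Of 21 TGF-beta target genes 14 rose (66.7%, against 22.1% of all genes) and 2 fell, with a median of 0.66, led by Cdkn2b (2.48). With the random block 8 of the 14 rises remained called. Of 22 YAP and TEAD targets 13 rose (59.1%) and 5 fell, of which 8 and 1 remained called with the random block. The risers included Axl (2.08), F3 (tissue factor, 2.45) and Tgfb2 (2.76), and Tead2 fell by 0.70. Ccn2 is a member of both lists. Of 30 ligands, receptors and antagonists of the TGF-beta family 9 rose and 8 fell (30.0% and 26.7%), against 22.1% and 27.0% of all genes. With the random block 6 and 3 of the 30 remained called, where 3.82% and 3.06% of all genes were called higher and lower. Besides Inhba the ligand Tgfb2 rose by 2.76 and the receptor Tgfbr2 by 1.19, and besides Lefty1 the receptors Acvr2b (-1.39) and Tgfbr3 (-1.03) fell.

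**Figure D4:**
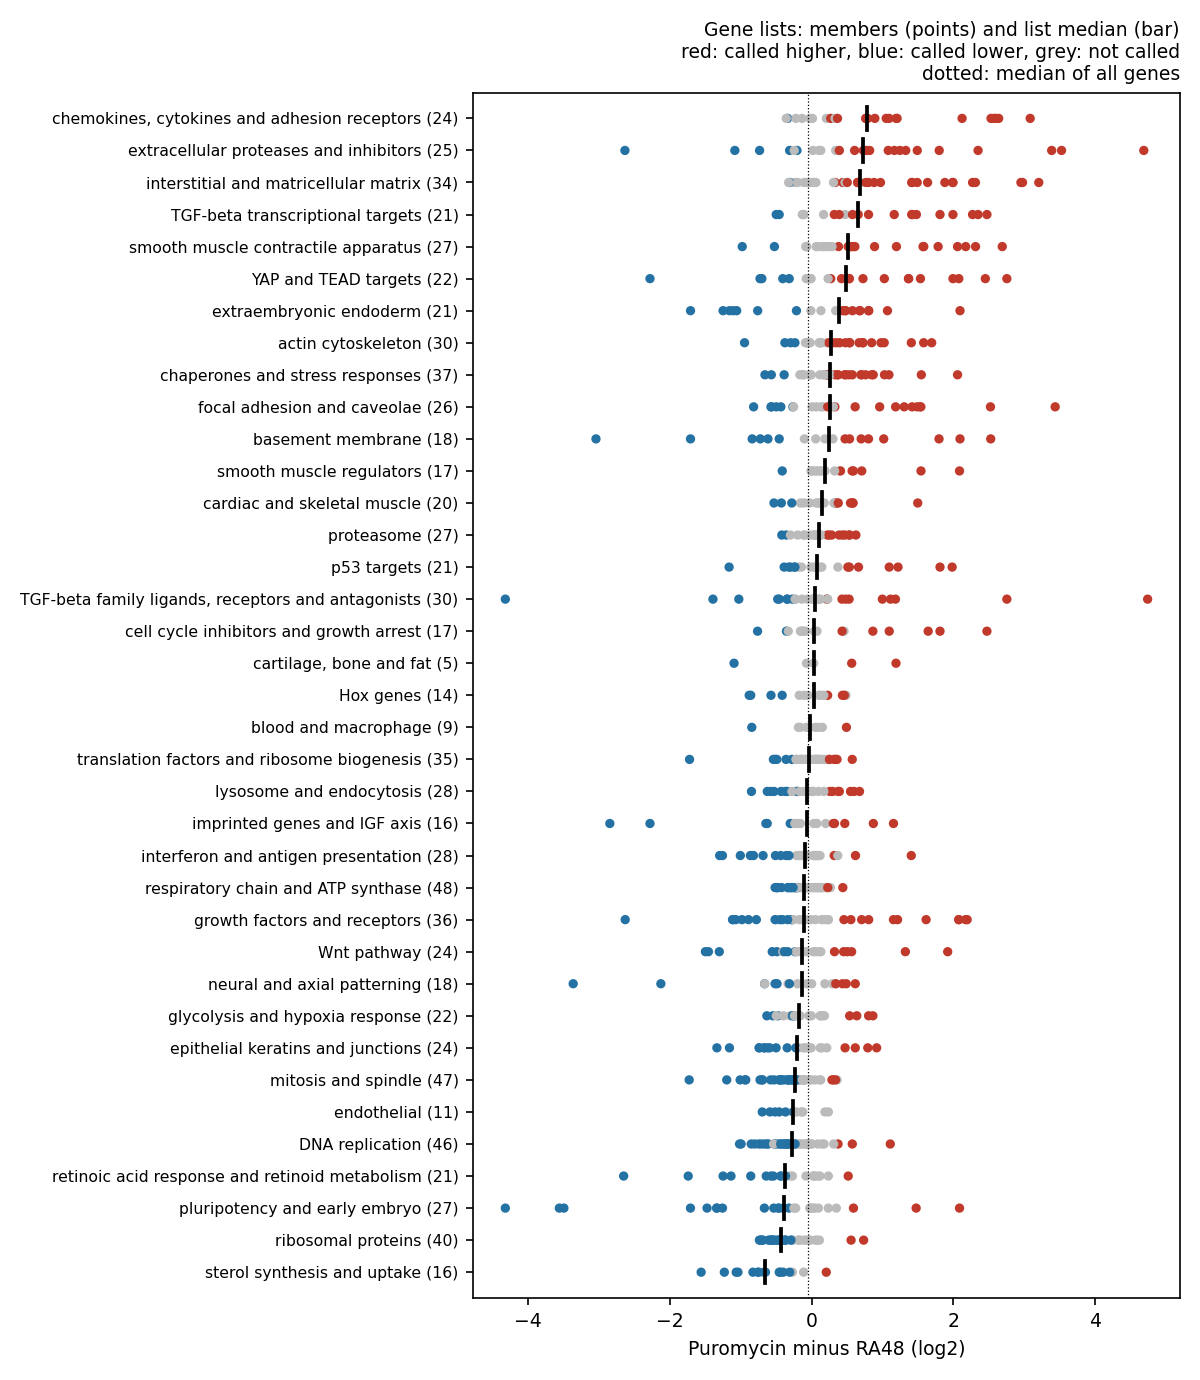
Difference of Puromycin minus RA48 (log2) for the measured members of 37 gene lists, ordered by the list median (black bar), with the number of measured members in brackets. Red points were called higher, blue points lower and grey points not called, and the dotted line is the median of all genes (-0.04). The chemokine, protease and matrix lists are at the top (medians 0.78, 0.73 and 0.68) and the sterol, ribosomal protein and pluripotency lists at the bottom (medians -0.66, -0.43 and -0.39).

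Cytokine and adhesion genes formed the list with the highest median (0.78). Of 24 measured, 16 rose (66.7%) and 1, Cxcl16 (-0.34), fell, and 6 of the 24 were late gained. Cxcl12, the chemokine of stromal cells, ranged from 2.44 to 3.03 in Puromycin cells (median 2.76), against -0.11, -0.19, 0.03, -0.57 and -0.71 in RA48 cells. It rose by 3.09 ± 0.18 (adjusted p = 2.8e-11) after a lower level in RA48 than in Control (-0.69). Calls remained for 9 of the 16 rises with the random block. Interferon and antigen presentation genes did not move alike. Of 28 measured 3 rose (10.7%), led by B2m (beta-2-microglobulin, 1.41), and 10 fell (35.7%), led by Usp18 (-1.30) and Bst2 (-1.26). Calls remained for 1 of the rises and 2 of the falls under the random block.

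Of 26 focal adhesion and caveolar genes 13 rose, with Cav1, Cav2 (2.53) and Cavin1 (1.54) largest, and 6 fell, among them Cd9 (-0.82), and 9 and 1 remained called with the random block. Of 30 actin cytoskeleton genes 16 rose (53.3%, against 22.1% of all genes) and 4 fell, and with the random block 7 and 0 of them remained called. In this list Gsn (gelsolin, 1.70), Msn (moesin, 1.58) and Arpc1b (1.41) were highest and Pdlim1 (-0.95) lowest. Among 36 growth factors and receptors 11 rose and 13 fell (30.6% and 36.1%), of which 7 and 5 remained with the random block, including Pdgfc (2.20) and Hbegf (2.18) against Kit and Vegfb (-1.12). Of 24 Wnt pathway genes 6 rose (25.0%), led by Rspo3 (1.92), and 8 fell (33.3%), shares near the 22.1% and 27.0% of all genes. Porcn (-1.5), the Wnt acyltransferase, was lowest. With the random block 0 of the rises and 1 of the falls remained called. The rise of Rspo3 was 3.42 in the first set and -0.002 in the second.

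Of 27 pluripotency and early embryo genes measured, 15 fell in Puromycin against RA48 (55.6%, against 27.0% of all genes), 3 rose and 9 were not called. Calls remained for 6 of the 15 falls and 2 of the rises with the random block. Of the 27, 4 fell by at least 2-fold both early and later, and Lefty1, the largest faller, had risen early. Sox2, a core pluripotency and neural progenitor factor, ranged from -1.18 to 0.10 in Puromycin cells (median -0.62), against 2.83, 3.02, 2.70, 2.47 and 3.31 in RA48 cells. It fell 11.8-fold (-3.56 ± 0.44, adjusted p = 1.75e-06) after an early change of -2.14. Trh, thyrotropin-releasing hormone, fell by 3.50 ± 0.30 (adjusted p = 9.07e-09) after an early change of -2.03. Nanog fell by 0.39 and Utf1 by 0.32, neither with the random block (adjusted p = 0.504 and 0.489), and Zfp42 was not called (-0.22, adjusted p = 0.491). Pou5f1 was not assessed here. The risers were Klf4 (2.09), Klf2 (1.48) and Klf5 (0.59), Krüppel-like factors that are also made by differentiated cells.

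The 70 late lost genes had a median later change of -1.23. Car2, carbonic anhydrase 2, ranged from -4.33 to -3.23 in Puromycin cells (median -3.65), against -0.91, -0.88, -1.11, 0.93 and 0.90 in RA48 cells (-3.58 ± 0.19, adjusted p = 7.04e-12). Igfbp2 fell by 2.85, Olfm1 by 1.86, Sulf1, which trims heparan sulfate, by 1.8 and Nr6a1, germ cell nuclear factor, by 1.71. Eef2, translation elongation factor 2, ranged from -4.87 to -0.57 in Puromycin cells (median -2.62), against -2.5, -2.28, -2.23, 0.40 and 0.27 in RA48 cells. The groups overlapped, and its call (-1.72 ± 0.29, adjusted p = 7.9e-05) was lost without the set term (adjusted p = 0.335). The 5 early down genes that recovered, meaning a later rise that was called and at least 2-fold, were Hprt (1.24), Mfsd2a (1.16), Sgk1 (1.14), Orc4 (1.11) and Pcolce2 (1.05). In Puromycin cells 1 of the 5 was still called below Control and 4 were not called either way. The rise of Sgk1 followed a larger early change of -2.55.

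Of 46 DNA replication genes 23 fell and 3 rose, and of 47 mitotic genes 27 fell and 3 rose, with medians of -0.27 and -0.23. Of the mitotic genes 57.4% fell, against 27.0% of all genes. Calls remained for 4 of the 23 replication falls and 5 of the 27 mitotic falls under the random block. Lig1, DNA ligase 1, fell by 1.02, Ccnb2, cyclin B2, by 1.20 and Stmn1, a microtubule destabilizer, by 1.73, and Orc4 rose by 1.11. The cyclin-dependent kinase inhibitors Cdkn2b (2.48) and Cdkn1a (1.81) rose. Of 40 ribosomal protein genes 27 fell (67.5%) and 2 rose, with a median of -0.43, but their mean level spanned 0.29 to 1.27 over Puromycin arrays and 0.52 to 1.65 over RA48 arrays, and without the set term 2 of the 40 were called lower. With the random block 0 of the 40 were called in either direction. Of 16 sterol synthesis and uptake genes 13 fell (81.2%) and 1 rose, with a median of -0.66, led by Srebf2 (-1.56), the regulator of the pathway, and Dhcr7 (-1.23). Their median was -0.91 in the first set and -0.23 in the second, and 2 remained called with the random block.

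Of 37 chaperone and stress genes 19 rose (51.4%, against 22.1% of all genes) and 3 fell (median 0.26), with Hspb1 (2.06), Sqstm1 (1.55) and Dnajb9 (1.09) largest. Calls remained for 5 of the 19 rises with the random block. Of 21 p53 target genes 7 rose (33.3%) and 6 fell (28.6%), with Fas (1.99) and Sesn1 (-1.16) at the ends, and of 17 growth arrest genes 6 rose (35.3%) and 2 fell (11.8%). In each of these lists 4 rises and 0 falls remained called with the random block. Against 22.1% of all genes higher and 27.0% lower, 9 of 27 proteasome genes rose (33.3%) and 2 fell (7.41%), and 2 of 48 respiratory chain genes rose (4.17%) and 15 fell (31.2%). Of 35 translation factors 6 rose and 6 fell (17.1% each). Calls remained for 0 genes of these 3 lists under the random block. Of 22 glycolysis and hypoxia genes 4 rose (18.2%) and 5 fell (22.7%), and of 28 lysosomal genes 7 rose (25.0%) and 9 fell (32.1%). With the random block 1 rise and 0 falls remained in each. Of 16 imprinted and insulin-like growth factor genes 5 rose and 5 fell (31.2% each), with Igf2 at 1.16, and 0 of the rises and 2 of the falls remained.

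Markers of other cell types were read beside these changes. Of 18 neural and axial genes 4 rose (22.2%, against 22.1% of all genes) and 6 fell (33.3%, against 27.0%). With the random block 0 and 3 of these remained called. Their mean level was -0.34 to -0.10 on Puromycin arrays and 0.04 to 0.15 on RA48 arrays. Of 24 epithelial genes 4 rose (16.7%) and 11 fell (45.8%), 1 and 3 with the random block, with mean levels of -0.69 to -0.61 and -0.50 to -0.42. Cdh1, E-cadherin, fell by 1.34, and Krt19 by 1.16. In the same list Cdh3, another cadherin, rose by 0.92, Jup by 0.79 and Krt18 by 0.62. Of 21 extraembryonic endoderm genes 10 rose (47.6%) and 7 fell (33.3%), 2 and 4 with the random block. Their mean levels were -0.78 to -0.31 on Puromycin arrays and -0.79 to -0.51 on RA48 arrays. Risers of that list included Col4a1 (2.10), Cubn (1.07) and Sox17 (0.81). Its fallers included Lama1 (-1.71), Krt19 (-1.16) and Foxa1 (-1.25), whose probes disagreed as given above. Of 11 endothelial genes 0 rose and 6 fell (54.5%). The endothelial mean level was -1.38 to -1.02 on Puromycin arrays and -1.07 to -0.88 on RA48 arrays, and with the random block 0 of the 6 remained called.

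Of 20 cardiac and skeletal muscle genes 8 rose (40.0%, against 22.1% of all genes) and 3 fell, and 0 of these 11 calls remained with the random block. The largest rise was Myl2 (1.5), at 2.59 in the first set and 0.10 in the second. The list had mean levels of -1.41 to -0.56 on Puromycin arrays and -1.58 to -0.76 on RA48 arrays. Of 5 cartilage, bone and fat genes 2 rose and 1 fell, with mean levels of -3.21 to -1.60 and -3.26 to -1.78, and of 9 blood genes 1 rose and 1 fell, with mean levels of -2.27 to -1.26 and -2.03 to -1.33. Calls remained for 0 genes of both lists with the random block. Log ratios against an embryo pool carry no detection limit here, so none of these markers can be called absent. The part of other cell types in the changes above was not tested.

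**Figure D5:**
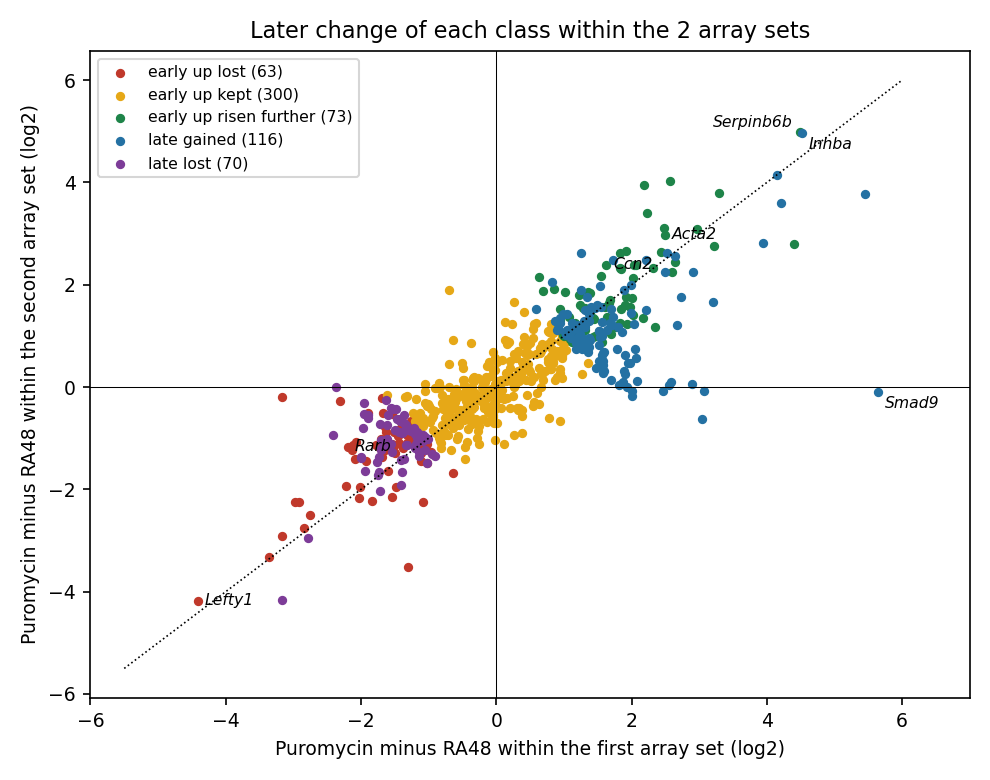
Later change (Puromycin minus RA48, log2) within the second array set against that within the first, for the genes of 5 classes, with the line of equality dotted. Lefty1, Serpinb6b, Inhba and Acta2 lie near the line. Late gained genes extend below the line, with medians of 1.56 in the first set and 1.08 in the second, and Smad9 lies far to the right at 5.65 and -0.09.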

How the data were processed

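RNA was measured on 23 arrays read with Agilent Feature Extraction, per the submitters' processing notes. The authors deposited 1 normalized log10 ratio per probe and array, red (Cy5, cells) over green (Cy3, embryo pool). The base was taken from the range of the values and the direction from the dyes in the labels. How the ratios were centred is unknown, array medians ran from -0.077 to 0.02, and no intensities or detection limits were used here. Dividing by 0.301, the log10 of 2, turned them into log2 ratios. Of 21446 rows, 1166 control-like rows (5.44%, without a gene and with at most 6 significant digits) were left out. Of 20280 probes, 11100 had 1 gene symbol, 442 several and 8738 none, and 37 gene identifiers had no match. Probes were averaged per symbol, giving 17863 rows, of which 8683 are genes.

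limma 3.58.1 in R 4.3.3 fitted group and array set over all 23 arrays, with Benjamini-Hochberg adjustment over 17863 rows. The fit with the random block (statmod 1.5.0) had no set term. Set membership was read from replicate numbers (1 to 3 against the rest) for Puromycin and RA48. For Control and RA96 it was read from the first principal component after group means were removed. This component held 48.9% of the variance left within groups. The sets were seen in earlier results, so p-values with the block are optimistic. On simulated data for Puromycin versus RA48 (17863 rows) the fit recovered 58% of changes of 0.5, 86% of 1, 100% of 2 and 92% of -1 on the log2 scale, with 3.4% false calls. These shares hold for the simulated arrays. The share of false calls among arrays correlated as estimated here (0.68 within group and set) was not tested. Replicate numbers paired arrays only through the set, since correlations of same-numbered arrays were 0.36 to 0.455 before and -0.034 to 0.138 after set means were removed.

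The members and lists were chosen with earlier results of these data known. Genes named were 7 marker genes, the 12 largest rises and the 12 largest falls without overlap within either set, the 8 largest of each class, up to 3 called members each way of each list, and the cell type markers. Rara, Srf, Sytl2, Serpinf2, Filip1l and Ankrd1, and the genes beside the class limits, were named after their values were seen. Alternatives covered normalization, array weights, the set term, replicate blocks, thresholds and leaving out each array. Python 3.11.15, numpy 2.4.6, pandas 2.3.3 and matplotlib 3.10.9 were also used.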

Additional observations from a re-analysis of the deposited data

Results flagged for a closer look

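Among 424 combinations of a named gene and a group, 17 held 1 array that stood apart from the others of its group by Dixon's criterion, and chance gives about 1 in 20. In Puromycin cells the highest array stood apart for Adamts5 (1.97, next 1.8), Cdc25b (-0.54, next -1.5), Cubn (0.38, next 0.06), Gfra1 (-0.60, next -1.24) and Tgfbr2 (0.22, next -0.04). The lowest Puromycin array stood apart for Hoxc10 (-0.60, next -0.46), Itga2 (-1.54, next -1.30) and Nos3 (-1.26, next -1.11). In RA48 cells the highest array stood apart for Fas (0.87, next 0.55), Lig1 (1.03, next 0.79) and Smc4 (0.88, next 0.46). The lowest RA48 array stood apart for Dkk2 (-2.06, next -1.40), Orc2 (0.79, next 1.15), Rbl1 (0.38, next 0.74), Sox11 (-0.57, next -0.07), Sox17 (-1.45, next -1.0) and Tnfrsf19 (1.06, next 1.29). RA48 replicate 4 was the array in 5 of these 17.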

How the results depend on the processing

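Of 17863 rows 7287 were called (3385 higher, 3902 lower), with 63 early genes lost and 116 late genes gained. Array weights gave 10976 calls, 6034 lower and 176 gained. The random block gave 756 calls, 429 higher, 327 lower and 69 gained, and 42 of the 63 and 69 of the 116 genes were shared. Without the set term 4487 rows were called, 2206 lower. The first set alone gave 213 gained genes. The second alone gave 3082 calls, 1572 higher and 1510 lower. Ratios read as log2 gave 0 lost and 8 gained. An adjusted p under 0.01 left 2550 lower. A 1.5-fold limit gave 207 lost and 405 gained, and a 4-fold limit 6 and 15. Early changes under 0.25 or 1 gave 67 or 188 gained. With the replicate block in place of the set, 5937 rows were called, 64 genes lost and 124 gained, and 14 of 212 named genes were no longer called. Leaving out single arrays gave 6116 to 7568 calls, 2900 to 3614 higher, 3157 to 4080 lower, 57 to 79 lost and 98 to 149 gained.

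Among the 212 named genes, calls ended with the direction kept for 113 with the random block and 40 without the set term. The same held for 52 in the second set alone and 10 in the first. Genes whose sign turned, given below, are not in these counts. Krt8 (-0.0044) turned positive with array weights (0.18), median centring (0.03), only Puromycin and RA48 arrays (0.0094), the replicate block (0.02), the first set (0.34) and with some single arrays left out (range -0.07 to 0.07). Id2 was 0.12 in the first set, and Myh11 was 0.12 without the set term and 0.11 with scale normalization. In the second set Cox7b was 0.05, Meis1 0.04, Nkx2-5 0.12, Rspo3 -0.002, Smad9 -0.09 and Tpm1 0.07. The cause was not tested.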
